A study of Mus musculus with 8 samples.

Results

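Collagens are the genes whose mRNAs are described here in tumors grown in wild-type and *Ccrl2*-deficient mice. All 44 genes of the deposited table whose symbol reads Col, a type number, the letter a and a chain number were taken, out of 47729 genes. They were sorted by the structure of the protein into 11 fibrillar collagens, 8 basement membrane collagens (6 chains of type IV plus *Col15a1* and *Col18a1*) and 25 others. The study grafted tumor cells under the back skin of syngeneic C57BL/6 mice (C57BL/6J in the methods) and sequenced total RNA of the whole tumors. There were 4 groups of 2 libraries. B16 WT and B16 KO were B16-F0 melanoma grown in mice with or without *Ccrl2*, a chemerin-binding receptor without classical signaling. LLC WT and LLC KO were Lewis lung carcinoma in the same hosts. The knockout was in the host alone, and the grafted cells of all 4 groups kept their own *Ccrl2*. No other agent was given. Each library was a pool of 3 tumors, so n is 2 pools per group and p-values measure the spread between pools. The labels place every graft at 5 days, whereas the study's legends name an earlier day for B16, so age of the graft and tumor type cannot be told apart between B16 and LLC. The mice were young adults per the study's methods, and the sex of the grafted mice is not given in the sources used here.

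A collagen is a trimer of chains in which every triplet of residues begins with glycine, the only residue small enough for the center of the helix. Fibrillar collagens form the banded fibers of connective tissue, type IV collagens form the sheet of basement membranes under epithelium and around vessels, and most of the others decorate, anchor or link these structures. In tumors most interstitial collagen is made by fibroblasts, and much of the type IV collagen by endothelial, mural and epithelial cells. The coding sequences show the difference between the classes. In the 11 fibrillar genes the longest uninterrupted run of glycine triplets had 216 to 344 triplets, whereas in the 6 type IV genes it had 39 to 66, with 16 to 24 separate runs of 5 or more. In the 6 type VI genes the longest run had 37 to 87 triplets. The following stretches of 54 coding bases of the GENCODE M21 transcripts (GRCm38) are shown because these chains carry the main contrasts of the results. Capitals mark glycine codons (GGN), and positions count from the A of the start codon. The stretch of *Col4a5* includes an interruption of the triplet pattern.
Col1a1, coding bases 502 to 555: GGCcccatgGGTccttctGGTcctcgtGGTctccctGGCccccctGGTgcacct
Col3a1, coding bases 490 to 543: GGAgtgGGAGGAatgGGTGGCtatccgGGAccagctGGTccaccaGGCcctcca
Col4a5, coding bases 4096 to 4149: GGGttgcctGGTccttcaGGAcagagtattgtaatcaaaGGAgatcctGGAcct
Col6a1, coding bases 766 to 819: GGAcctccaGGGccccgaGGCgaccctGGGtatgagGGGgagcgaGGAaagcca

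The values are reads per M reads on genes (RPM; M, 1000000), obtained by dividing the deposited counts per 20 M by 20. Depth, estimated from the steps between low values, was 17.6 to 30.84 M reads per library, so that 3 reads equal 0.0973 to 0.170 RPM. *Ccrl2* itself stood at 4.25 and 3.8 RPM in B16 WT and 3.55 and 3.1 RPM in B16 KO, where both KO pools were lower, and at 9.4 and 5.25 RPM in LLC WT and 11.45 and 5.15 RPM in LLC KO, where the pools overlapped. As the grafted cells carry the gene, its level does not check the host genotype. The melanocyte markers summed to 14625 to 17949 RPM in B16 and 24.55 to 27.55 RPM in LLC, and the simple epithelial markers to 8.8 to 12.65 RPM in B16 and 278 to 472 RPM in LLC. The latter sum in LLC was mostly *Krt8* (152 to 227 RPM) and *Krt18* (110 to 232 RPM). *Epcam* and *Cldn4* stayed at 0 to 0.25 RPM in all libraries. *Krt7* went the other way, at 7.25 to 10.95 RPM in B16 and 0.05 to 0.3 RPM in LLC. The Y-linked genes *Ddx3y*, *Eif2s3y*, *Kdm5d* and *Uty* were listed at 0 in 6 libraries and at 5.95 to 34.9 RPM in both LLC KO pools, so whatever set those pools apart in this respect cannot be told apart from the host genotype in LLC. B16 WT pool 1 held 782 RPM of skeletal muscle markers against 3.65 to 6.2 RPM in the other 7 libraries.

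Collagen mRNA made up a smaller part of the reads in B16 than in LLC tumors. The 44 genes took 0.196 to 0.306% of all reads on genes in B16 and 2.58 to 5.21% in LLC. Per kilobase of transcript (RPM divided by the length of the transcript with the longest coding sequence), the fibrillar class was the most abundant in every library, and *Col3a1*, the single chain of type III collagen of skin, vessels and healing wounds, was the highest gene in all 4 groups. *Col3a1* averaged 173 ± 35.5 RPM per kb (SD, n = 2) in B16 WT, 113 ± 10.5 in B16 KO, 3195 ± 1573 in LLC WT and 2531 ± 175 in LLC KO. The type I chains *Col1a2* and *Col1a1* came next in all groups but LLC KO. There *Col6a1* was second at 515 ± 59.9 RPM per kb, within reach of *Col1a2* at 406 ± 24.9 and *Col1a1* at 386 ± 29.4.

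**Figure D1:**
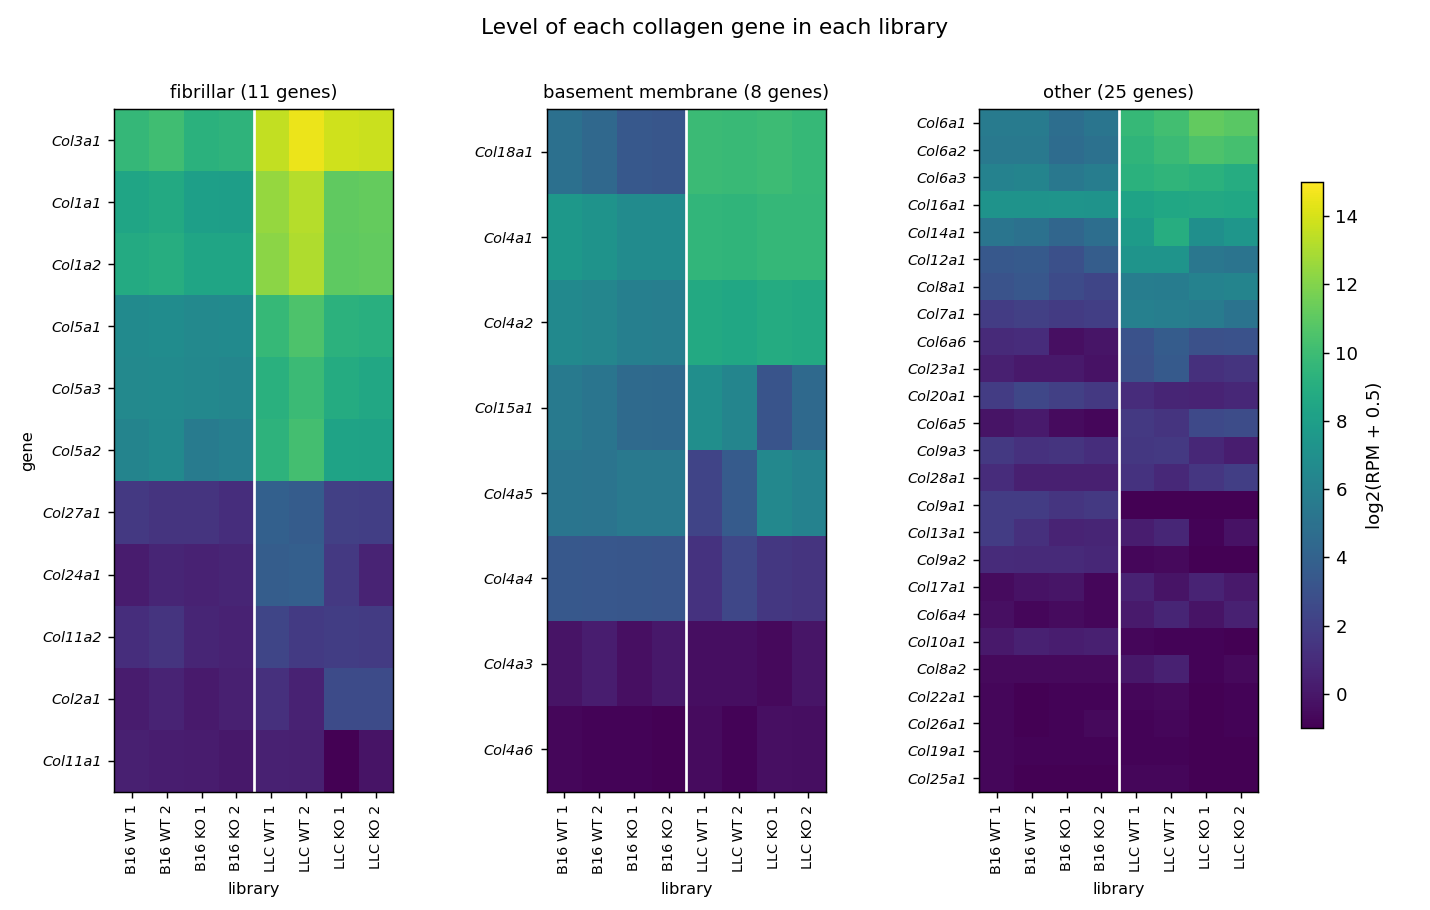
Level of the 44 collagen genes (rows, by class and ordered by mean level) in the 8 libraries (columns), as log2(RPM + 0.5). The white line separates B16 from LLC. *Col3a1*, *Col1a1* and *Col1a2* lead the fibrillar class in all libraries, and *Col4a5* is the gene of the basement membrane panel that is low in LLC WT pools (4.35 and 11.7 RPM) and high in LLC KO pools (90 and 67.4 RPM).

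The summed class levels moved differently with the host in the 2 tumors. Fibrillar collagens summed to 367 ± 58.4 RPM per kb (SD, n = 2) in B16 WT and 254 ± 11.4 in B16 KO. In LLC they summed to 4256 and 8100.5 RPM per kb in the WT pools and 3605 and 3413 in the KO pools. The KO pools lay below both WT pools in each tumor, and LLC WT pool 2 stood apart from LLC WT pool 1. The sum of leukocyte markers was likewise lower in both LLC KO pools, at 2939.6 and 5569.6 RPM in WT and 1896 and 2399 RPM in KO hosts. It was mostly *Lyz2*, the 1 of 4 tested that was called (lower), where 23.1% of all genes were called lower. *Ptprc* was lower in both KO pools without a call. The pools overlapped for *Adgre1* (183 and 262 RPM in WT, 177.5 and 245 RPM in KO hosts). They also overlapped for *S100a8* (32.4 and 17.35 RPM in WT, 36.5 and 27.75 RPM in KO hosts). By flow cytometry the study saw no significant change in leukocytes of LLC tumors. The part of these markers in the result was not tested. Basement membrane collagens summed to 64 and 52.2 RPM per kb in B16 WT and 38.7 and 38.1 in B16 KO, against 373 and 347 in LLC WT and 393 and 349 in LLC KO. The KO pools of this class lay below the WT pools in B16, and the LLC pools of the 2 hosts were close to each other. The other collagens summed to 71.2 and 71.1 RPM per kb in B16 WT and 55.1 and 60.8 in B16 KO, but to 578 and 769.7 in LLC WT and 1118 and 960.0 in LLC KO. Here the KO pools were the lower ones in B16 and the higher ones in LLC. With 2 pools against 2 an exact permutation test cannot go below p = 0.333 (two-sided), so these sums are given without a test.

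As a share of all collagen mRNA per kb, the fibrillar class held 70.7 and 76.8% in the B16 WT pools and 72.4 and 72.6% in the B16 KO pools, against 81.75 and 87.9% in LLC WT and 70.5 and 72.3% in LLC KO. *Col1a1* alone held 18.7 and 17.75% in the LLC WT pools and 7.145 and 8.62% in the LLC KO pools, and *Col3a1* held 40 and 46.7% and then 51.9 and 51%. *Col6a1* held 4.02 and 3.025% in LLC WT and 10.9 and 10% in LLC KO. The pools of the 2 hosts in LLC did not overlap in any of these 4 shares. Those of the fibrillar class and *Col1a1* were smaller in KO hosts, and those of *Col3a1* and *Col6a1* larger. Shares are parts of a whole, so a lower share of type I raises the others. The level of *Col3a1* itself averaged 3195 ± 1573 RPM per kb (SD, n = 2) in LLC WT and 2531 ± 175 in LLC KO. That of the type VI chain *Col6a3* averaged 64.0 ± 7.12 and 52.5 ± 8.04.

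**Figure D2:**
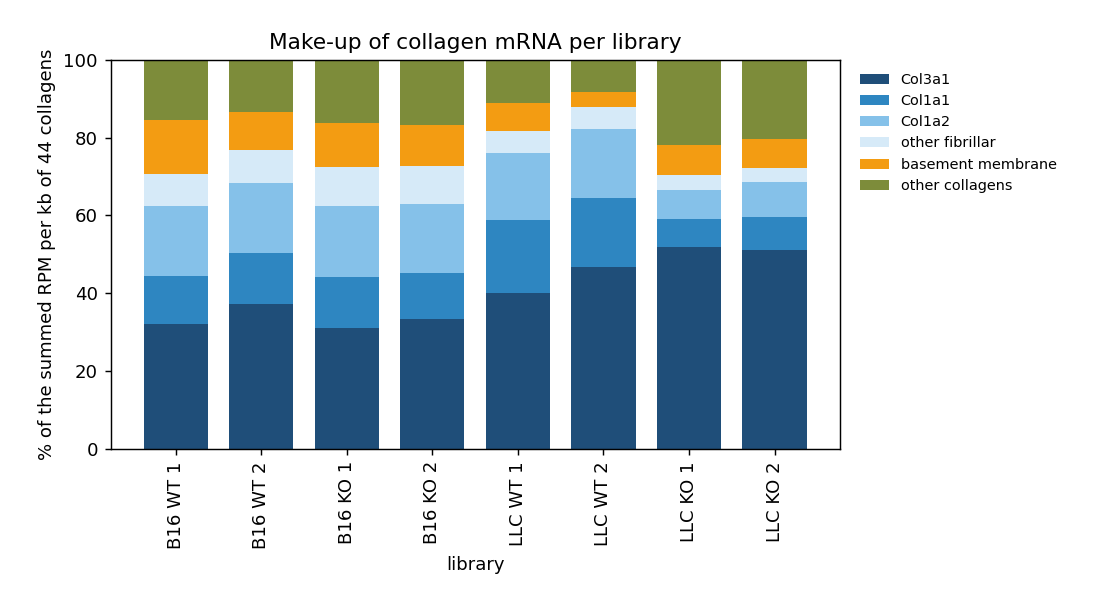
Make-up of collagen mRNA in each library, as percent of the summed RPM per kb of the 44 collagen genes. Bars are libraries and colors are genes or classes. In the LLC KO pools *Col1a1* and *Col1a2* each hold 7.15 to 8.97%, against 17.4 to 18.7% in the LLC WT pools, while *Col3a1* exceeds 50% of the total.

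To ask which single genes differed, limma was fitted to log2(RPM + 0.5) of all genes that reached 1 RPM in 2 or more libraries. Of the 44 collagens 33 entered the test, 10 fibrillar, 6 basement membrane and 17 others, and a gene was called at an adjusted p (Benjamini-Hochberg over 14706 genes) under 0.05. In LLC tumors 6 collagens were higher and 13 lower in KO hosts, where 38.3% of all tested genes were called, 15.1% higher and 23.1% lower. Calls were thus frequent among all genes as well, and 14 collagens were not called. Without regard to the test, both KO pools lay below the WT pools for 17 collagens, against 42.0% of all genes, and above them for 10, against 27.6%. Fibrillar genes mostly fell: 7 of 10 were lower and 1 was higher, with a median log2 fold change of -1.23, against -0.09 over all tested genes. Basement membrane genes split, 1 higher and 1 lower of 6 (median 0.06). Of the 17 others 4 were higher and 5 lower (median -0.29). Among these others, 3 of 5 tested type VI chains were higher and 0 lower (median 0.75). A lower level in bulk tumors can mean fewer cells of a type or less RNA per cell, which cannot be told apart.

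**Figure D3:**
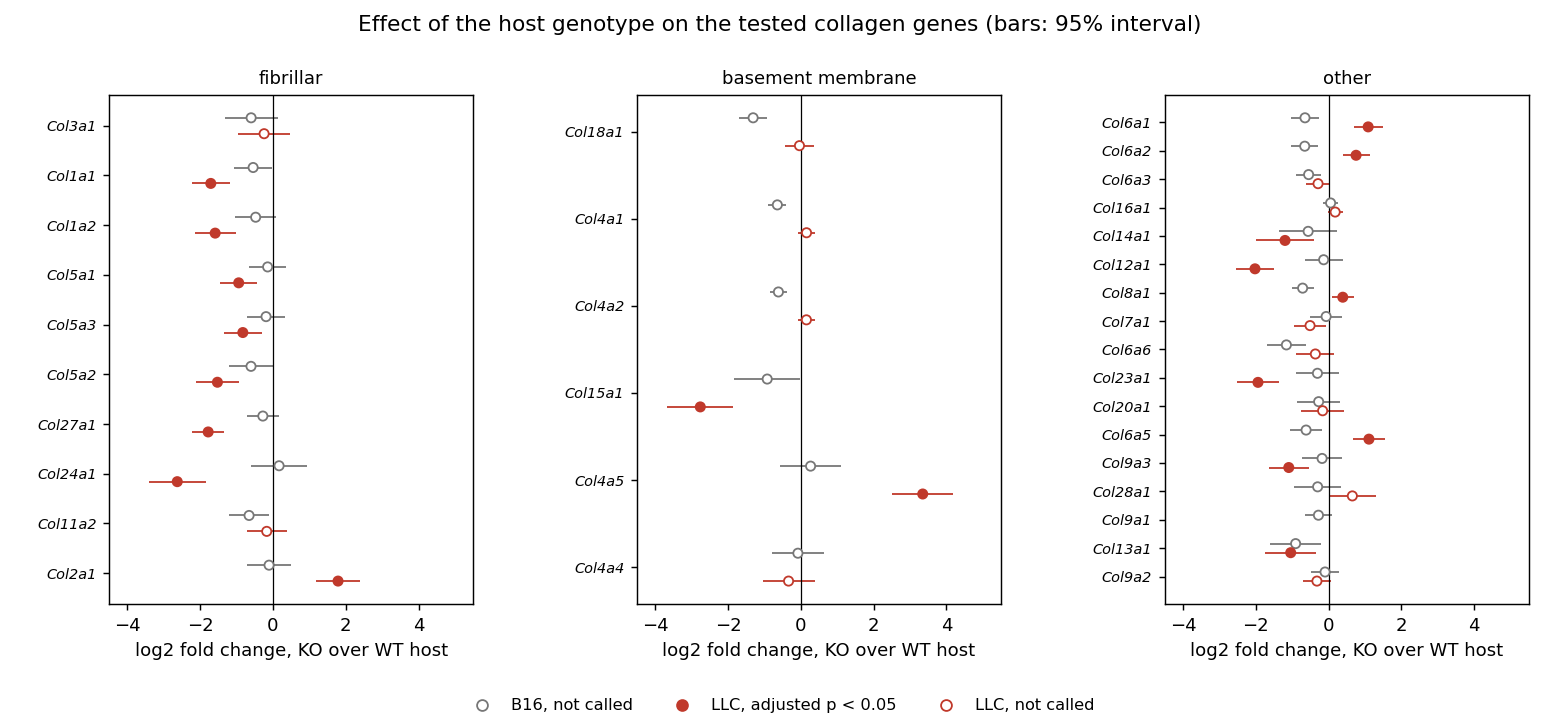
Log2 fold change of KO over WT hosts for the 33 tested collagens by class, in B16 (gray) and LLC (red), with 95% intervals from limma. Filled points have an adjusted p under 0.05. *Col9a1* is drawn for B16 only, as it was listed at 0 in all LLC libraries. In LLC the fibrillar genes lie left of 0 except *Col2a1* (1.79), and *Col4a5* (3.35) lies furthest right.

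Type I collagen, the main fiber-forming collagen of skin and bone and a trimer of *Col1a1* and *Col1a2* chains, fell in both chains. *Col1a1* (chr11:94936224-94953042, plus strand, GRCm38) stood at 5771.5 and 9699.6 RPM in WT hosts and 2168 and 2415 RPM in KO hosts in LLC tumors. Its partner *Col1a2* (chr6:4504814-4541544) stood at 4839 and 8793 RPM in WT hosts and 2076 and 2264 RPM in KO hosts. Both KO pools lay below the lower WT pool for either chain, although the WT pools differed among themselves by more than the KO pools. The log2 fold change was -1.71 ± 0.22 (SE) for *Col1a1* (adjusted p = 0.002) and -1.59 ± 0.24 for *Col1a2* (adjusted p = 0.00324). With each tumor fitted alone the call of *Col1a2* was lost (adjusted p = 0.0561). The chains stayed near the same proportion: *Col1a1* per kb was 1.08 and 0.995 times *Col1a2* in LLC WT and 0.942 and 0.962 times in LLC KO.

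Type III collagen, which forms mixed fibrils with type I, was not called with it in LLC. *Col3a1* (chr1:45311538-45349706) stood at 11587 and 23963 RPM in WT hosts and 14772 and 13397 RPM in KO hosts. The KO pools lay between the 2 WT pools, and the difference was not called (log2 fold change -0.24 ± 0.31 (SE), adjusted p = 0.566, 95% interval -0.97 to 0.48). This result hung on the WT pools: without LLC WT pool 1 the value was -0.77 and called (adjusted p = 0.0157), and without LLC WT pool 2 it was 0.28. The ratio of *Col3a1* to *Col1a1* per kb, which does not depend on the total collagen of a pool, was 2.14 and 2.63 in the LLC WT pools and 7.26 and 5.91 in the LLC KO pools. Both KO pools exceeded both WT pools, and the 4 B16 pools lay at 2.57 and 2.83 in WT and 2.37 and 2.835 in KO hosts, where the pools overlapped.

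Type V collagen, which starts fibrils and limits their width, fell with type I. *Col5a2* stood at 638 and 1167 RPM in WT hosts and 306 and 293 RPM in KO hosts (log2 fold change -1.53 ± 0.26 (SE), adjusted p = 0.00458). *Col5a1* stood at 858 and 1461 RPM in WT hosts and 615 and 551.5 RPM in KO hosts (log2 fold change -0.94 ± 0.22 (SE), adjusted p = 0.0132). *Col5a3* stood at 564 and 977 RPM in WT hosts and 454 and 384 RPM in KO hosts (log2 fold change -0.83 ± 0.23 (SE), adjusted p = 0.0242). All 3 chains were below both WT pools in both KO pools, and *Col5a2* fell the furthest. The ratio of *Col5a1* to *Col5a2* per kb was 1.06 and 0.987 in LLC WT and 1.585 and 1.49 in LLC KO, and the KO pools of B16 likewise lay above the WT pools, at 1.42 and 1.31 against 1.06 and 0.923. Without LLC WT pool 2 the log2 fold change was -0.56 for *Col5a1* and -0.43 for *Col5a3*. Leaving out LLC KO pool 1 or 2 ended the calls of *Col5a1* (adjusted p = 0.0507 and 0.07) and of *Col5a3* (adjusted p = 0.0651 and 0.12).

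The minor fibrillar collagens of bone and cartilage, *Col24a1* and *Col27a1*, fell towards their B16 levels. *Col24a1* stood at 12.55 and 13.6 RPM in WT hosts and 2.7 and 1 RPM in KO hosts in LLC (log2 fold change -2.63 ± 0.34 (SE), adjusted p = 0.00192), and at 0.65 to 1.05 RPM in B16. *Col27a1* stood at 14.6 and 12 RPM in WT hosts and 3.65 and 3.35 RPM in KO hosts in LLC (log2 fold change -1.78 ± 0.19 (SE), adjusted p = 0.00119), and at 1.6 to 2.65 RPM in B16. The cartilage chain *Col2a1* went the other way, from 1.8 and 0.95 RPM in WT to 5.85 and 5.75 RPM in KO hosts (log2 fold change 1.79 ± 0.26 (SE), adjusted p = 0.00276), and both KO pools agreed closely. Of 8 cartilage and bone markers 1 entered the test, *Sox9*, at 32.15 and 18.05 RPM in LLC WT and 51.25 and 58.55 RPM in LLC KO (1.17 ± 0.27, adjusted p = 0.0131), while *Acan* stayed at 0 to 0.15 RPM in all libraries. Their part in the result was not tested. *Col11a2*, a chain of cartilage type XI collagen, stood at 4.55 and 2.75 RPM in WT hosts and 3.3 and 2.9 RPM in KO hosts with overlapping pools (log2 fold change -0.17 ± 0.23 (SE), adjusted p = 0.59).

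**Figure D4:**
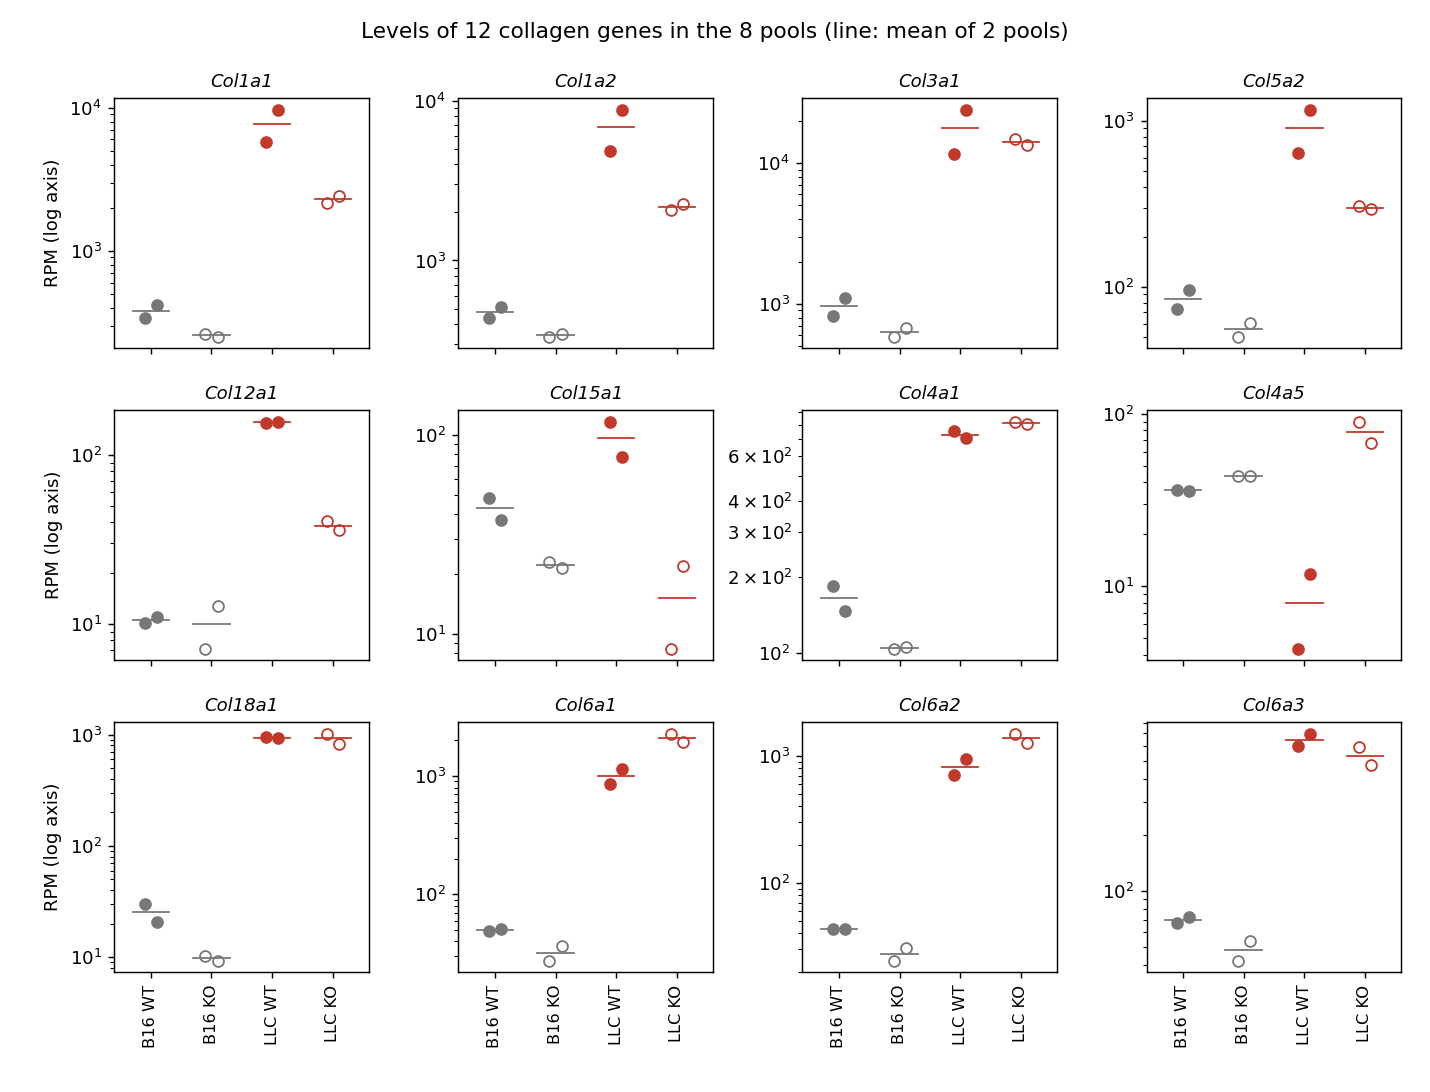
Levels (RPM, log axis) of 12 collagen genes in the 8 pools. Filled points are WT hosts, open points KO hosts, gray B16 and red LLC, and lines are means of 2 pools. The LLC KO pools lie below the LLC WT pools for *Col1a1*, *Col1a2*, *Col5a2*, *Col12a1* and *Col15a1*, above them for *Col4a5*, *Col6a1* and *Col6a2*, and between or around them for *Col3a1* and *Col18a1*, while *Col4a1* and *Col6a3* differ little.

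Among the 6 tested basement membrane collagens *Col4a5*, the X-linked type IV chain known from Alport syndrome, had the largest fitted change in LLC. It stood at 4.35 and 11.7 RPM in WT hosts and 90 and 67.4 RPM in KO hosts in LLC, and both KO pools were several times higher than the higher WT pool (log2 fold change 3.35 ± 0.36 (SE), adjusted p = 0.0012, a fitted 10.2-fold). In B16 it stood at 36.35 and 35.6 RPM in WT hosts and 43.45 and 43.45 RPM in KO hosts (log2 fold change 0.27 ± 0.36 (SE), adjusted p = 0.822). The call in LLC held under every alternative that was run, but the log2 fold change was 2.68 without LLC WT pool 1 and 4.01 without LLC WT pool 2, and the 4 B16 pools lay between the LLC WT and the LLC KO pools. *Col4a6*, which is transcribed away from the start of *Col4a5* on the opposite strand, stayed at 0 to 0.3 RPM in all 8 libraries and did not enter the test.

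The ubiquitous type IV chains *Col4a1* and *Col4a2*, which form the trimer found in nearly all basement membranes, were not called in LLC. *Col4a1* (chr8:11198423-11312826, minus strand) stood at 755 and 706 RPM in WT hosts and 822.5 and 806 RPM in KO hosts (log2 fold change 0.16 ± 0.11 (SE), adjusted p = 0.268). *Col4a2* (chr8:11312805-11449287, plus strand) stood at 415 and 369 RPM in WT hosts and 454 and 417 RPM in KO hosts (log2 fold change 0.15 ± 0.10 (SE), adjusted p = 0.258). The KO pools were the higher ones for both, by a margin that was not called. Their ratio per kb was 1.72 to 1.88 in all 8 libraries. The genes start next to each other on opposite strands and share 22 exon bases, whose reads cannot be assigned without strand. *Col4a4*, a chain of the kidney filter, stood at 2 and 4.75 RPM in WT hosts and 2.55 and 2.2 RPM in KO hosts (log2 fold change -0.34 ± 0.31 (SE), adjusted p = 0.414), with overlapping pools.

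The multiplexins, basement membrane collagens that carry sugar chains, parted in LLC. *Col15a1*, found around capillaries and muscle, stood at 117 and 77.55 RPM in WT hosts and 8.4 and 21.9 RPM in KO hosts, and both KO pools were far below both WT pools (log2 fold change -2.76 ± 0.39 (SE), adjusted p = 0.00258). The value of *Col15a1* was -2.10 without LLC KO pool 1 and -3.43 without LLC KO pool 2. *Col18a1*, the source of endostatin, stood at 954 and 931 RPM in WT hosts and 1021 and 826 RPM in KO hosts with overlapping pools (log2 fold change -0.04 ± 0.17 (SE), adjusted p = 0.883, 95% interval -0.42 to 0.35). The direction of *Col18a1* in LLC was not stable: it was 0.05 under a trimmed mean scaling. Blood endothelial markers moved with *Col15a1*: 10 of 12 were called lower in LLC KO, against 23.1% of all genes. Their sum was 316 and 248 RPM in LLC WT and 24.05 and 94.05 RPM in LLC KO, and *Cldn5* was at 0 in LLC KO pool 1. Mural markers (pericytes and smooth muscle) moved too, 5 of 10 lower against the same 23.1% of all genes. Their sum was 326 and 255 RPM in LLC WT and 34.95 and 133 RPM in LLC KO. Their part in the result was not tested. For *Col4a1* and *Col4a2* the same KO pools lay above the WT pools without a call, and which cells made these chains was not tested.

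The starts of genes that fell, rose or held their level in LLC are printed for comparison, read from RefSeq (GRCm38.p6) as the bases before the annotated start of the gene and 5′ to 3′ on the strand of the gene. Capitals mark TATAA (the core of a TATA box), CCAAT and GGGCGG (a GC box) on either strand, and TTATAA in *Col3a1* is TATAA overlapping its own reverse complement. CCGCCC is GGGCGG read on the other strand. *Col4a5* is printed without the last bases before its start, which are annotated as exon and hold its GGGCGG. The window of *Col27a1* precedes its RefSeq start but lies inside the gene as GENCODE M21 places it, from chr4:63214004.
Col4a5, chrX:141475169-141475384, plus strand: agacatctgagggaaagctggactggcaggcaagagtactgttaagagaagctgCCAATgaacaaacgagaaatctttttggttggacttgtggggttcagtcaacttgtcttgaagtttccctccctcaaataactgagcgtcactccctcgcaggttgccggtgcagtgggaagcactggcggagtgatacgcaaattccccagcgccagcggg
Col4a6, chrX:141474077-141474326, minus strand: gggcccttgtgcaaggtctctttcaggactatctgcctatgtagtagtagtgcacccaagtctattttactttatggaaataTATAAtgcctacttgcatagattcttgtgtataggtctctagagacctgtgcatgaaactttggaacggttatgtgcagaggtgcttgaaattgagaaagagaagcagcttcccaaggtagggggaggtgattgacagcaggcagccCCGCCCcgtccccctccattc
Col3a1, chr1:45311288-45311537, plus strand: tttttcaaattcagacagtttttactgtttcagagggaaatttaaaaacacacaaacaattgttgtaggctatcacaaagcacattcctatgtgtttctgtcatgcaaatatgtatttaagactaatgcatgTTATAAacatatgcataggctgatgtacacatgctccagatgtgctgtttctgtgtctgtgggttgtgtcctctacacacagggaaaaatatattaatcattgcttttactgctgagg
Col24a1, chr3:145292222-145292471, plus strand: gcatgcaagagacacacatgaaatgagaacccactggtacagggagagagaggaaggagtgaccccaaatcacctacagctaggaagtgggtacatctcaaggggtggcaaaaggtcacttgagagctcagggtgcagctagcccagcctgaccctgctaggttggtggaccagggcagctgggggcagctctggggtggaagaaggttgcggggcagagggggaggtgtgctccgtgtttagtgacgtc
Col27a1, chr4:63215162-63215411, plus strand: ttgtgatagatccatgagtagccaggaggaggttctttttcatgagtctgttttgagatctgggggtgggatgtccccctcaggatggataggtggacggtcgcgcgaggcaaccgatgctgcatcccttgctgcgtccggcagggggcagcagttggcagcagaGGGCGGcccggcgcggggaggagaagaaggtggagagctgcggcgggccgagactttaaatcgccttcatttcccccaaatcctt

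Of the 44 collagens 35 had such a window of 250 bases in the table. TATAA was present in 7 of them, CCAAT in 13 and GGGCGG in 21. The 35 genes had 38 windows, and a gene counted if any of its windows held the motif. Of all 32851 windows, counted by window and not by gene, 22.8%, 33.8% and 32.7% held them. *Col24a1* and *Col27a1*, which fell together, shared no motif of the 3, as the *Col24a1* window held none. A match is only a description of the letters.

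Type VI collagen, which forms beaded filaments between cells and fibers, rose in LLC tumors of KO hosts in 2 of its 3 main chains. *Col6a1* stood at 858 and 1143 RPM in WT hosts and 2285 and 1938 RPM in KO hosts (log2 fold change 1.09 ± 0.17 (SE), adjusted p = 0.00354). *Col6a2* stood at 706 and 939 RPM in WT hosts and 1501 and 1258 RPM in KO hosts (log2 fold change 0.75 ± 0.16 (SE), adjusted p = 0.0101). Both KO pools exceeded both WT pools for each, and the call of *Col6a2* was lost without LLC KO pool 1 (adjusted p = 0.069). The large chain *Col6a3*, which completes the trimer, stood at 596 and 698 RPM in WT hosts and 588 and 473 RPM in KO hosts and was lower in the KO pools without being called (log2 fold change -0.29 ± 0.15 (SE), adjusted p = 0.153). The ratio of *Col6a3* to *Col6a1* per kb was accordingly 0.282 and 0.248 in LLC WT, 0.104 and 0.099 in LLC KO and 0.553 to 0.621 in the 4 B16 pools, so the 3 sets did not overlap. *Col6a5*, one of the chains that can take the place of *Col6a3*, rose from 2.6 and 2.2 to 5.35 and 6.15 RPM (log2 fold change 1.11 ± 0.19 (SE), adjusted p = 0.00496). The similar chain *Col6a6* stood at 7.7 and 12.1 RPM in WT hosts and 7.25 and 7.55 RPM in KO hosts (log2 fold change -0.36 ± 0.23 (SE), adjusted p = 0.234).

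Collagens on the surface of fibrils (the FACIT group) mostly fell or held. *Col12a1*, made in stretched and wounded tissue, stood at 155 and 158 RPM in WT hosts and 40.5 and 35.85 RPM in KO hosts (log2 fold change -2.02 ± 0.22 (SE), adjusted p = 0.00126). *Col14a1*, found on fibrils of skin and tendon, stood at 223 and 491 RPM in WT hosts and 125 and 166 RPM in KO hosts (log2 fold change -1.20 ± 0.35 (SE), adjusted p = 0.0297). Neither gene overlapped between the hosts, but the call of *Col14a1* was lost in 9 of 18 alternatives, among them without LLC KO pool 1 (adjusted p = 0.149), without LLC KO pool 2 (0.0629), without LLC WT pool 2 (log2 fold change -0.63, adjusted p = 0.0829) and without either B16 WT pool (0.0531 and 0.0529). *Col16a1*, made by fibroblasts and smooth muscle, had KO pools just above the higher WT pool, at 317 and 374 RPM in WT hosts and 407 and 374 RPM in KO hosts (log2 fold change 0.18 ± 0.09 (SE), adjusted p = 0.145). It was called higher only without LLC WT pool 2 (0.30, adjusted p = 0.0184). *Col9a3*, a chain of cartilage type IX collagen of which 6.07% of exon bases overlap *Tcfl5* on the opposite strand, stood at 2.5 and 2.6 RPM in WT hosts and 1.2 and 0.7 RPM in KO hosts (log2 fold change -1.09 ± 0.23 (SE), adjusted p = 0.0104). Its call was lost without LLC KO pool 2 (adjusted p = 0.0581). *Col20a1* stood at 1.5 and 1.1 RPM in WT hosts and 1 and 1.2 RPM in KO hosts (log2 fold change -0.16 ± 0.25 (SE), adjusted p = 0.635), with overlapping pools.

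The remaining collagens included membrane-bound and network-forming chains. The transmembrane *Col23a1* stood at 7.25 and 11.3 RPM in WT hosts and 1.8 and 2.2 RPM in KO hosts (log2 fold change -1.94 ± 0.25 (SE), adjusted p = 0.00197). Transmembrane *Col13a1*, a protein of cell adhesions and the neuromuscular junction, stood at 0.7 and 1.15 RPM in WT hosts and 0.05 and 0.35 RPM in KO hosts (log2 fold change -1.04 ± 0.30 (SE), adjusted p = 0.029), and its call was lost without LLC WT pool 2 (adjusted p = 0.116) or LLC KO pool 1 (0.156). Both were below both WT pools, *Col13a1* near the floor of the assay. *Col8a1*, of the hexagonal lattice under vessel and corneal endothelium, stood at 55.1 and 52.8 RPM in WT hosts and 68.65 and 73 RPM in KO hosts, just past the threshold (log2 fold change 0.39 ± 0.13 (SE), adjusted p = 0.0492). The call was lost without any of the LLC pools or either B16 WT pool (adjusted p = 0.0556 to 0.197). *Col7a1*, the anchoring fibril of the skin, stood at 60.8 and 56.35 RPM in WT hosts and 50.05 and 33.5 RPM in KO hosts (log2 fold change -0.51 ± 0.19 (SE), adjusted p = 0.0677), and was called only without LLC KO pool 1 (-0.80, adjusted p = 0.028). *Col28a1*, known from peripheral nerve, stood at 2 and 1.3 RPM in WT hosts and 2.35 and 3.4 RPM in KO hosts, with both KO pools higher and no call (log2 fold change 0.65 ± 0.28 (SE), adjusted p = 0.101).

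In B16 tumors no collagen was called in either direction, as 0% of all 14706 genes were, while 1442 genes had an unadjusted p under 0.05 (smallest adjusted p = 0.202). The direction was shared: 30 of 33 collagens had a negative log2 fold change, with a median of -0.48, against a median of -0.05 and 61.6% negative over all genes. In 21 collagens both KO pools lay below both WT pools and in 2 above, against 31.1% and 16.1% of all genes. At an unadjusted p under 0.05 there were 14 collagens, and the smallest adjusted p (limma) among them was 0.23. Fibrillar genes had a median of -0.38, basement membrane genes of -0.63, others of -0.31 and type VI chains of -0.65.

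Most basement membrane and type VI genes separated the hosts in B16. *Col18a1* stood at 30.05 and 20.9 RPM in WT hosts and 10.3 and 9.35 RPM in KO hosts (log2 fold change -1.31 ± 0.17 (SE), adjusted p = 0.23), and it was called without B16 WT pool 2 (adjusted p = 0.0309). *Col4a1* stood at 183 and 146 RPM in WT hosts and 104 and 105 RPM in KO hosts (log2 fold change -0.64 ± 0.11 (SE), adjusted p = 0.232). *Col4a2* stood at 96.65 and 81.6 RPM in WT hosts and 58.85 and 56.8 RPM in KO hosts (log2 fold change -0.61 ± 0.10 (SE), adjusted p = 0.232). The KO pools of these chains agreed closely and lay below both WT pools. *Col6a1* stood at 49.35 and 50.75 RPM in WT hosts and 27.55 and 36.55 RPM in KO hosts (log2 fold change -0.65 ± 0.17 (SE), adjusted p = 0.393). *Col6a2* stood at 43.65 and 43.45 RPM in WT hosts and 24.45 and 30.85 RPM in KO hosts. *Col6a3* stood at 67.3 and 72.7 RPM in WT hosts and 42.2 and 53.8 RPM in KO hosts. All 3 main chains of type VI were lower in both KO pools. *Col15a1* stood at 48 and 37.4 RPM in WT hosts and 22.85 and 21.4 RPM in KO hosts (log2 fold change -0.92 ± 0.39 (SE), adjusted p = 0.507). It too was lower in both KO pools, as were *Col8a1* (8 and 9.6 RPM in WT hosts and 5.7 and 4.65 RPM in KO hosts) and the low *Col6a6* (1.35 and 1.55 RPM in WT hosts and 0.3 and 0.45 RPM in KO hosts) and *Col6a5* (0.4 and 0.6 RPM in WT hosts and 0.2 and 0.1 RPM in KO hosts). Blood endothelial markers summed to 206 and 150.2 RPM in B16 WT and 73.95 and 58.35 RPM in B16 KO. Mural markers summed to 286 and 233 RPM in B16 WT and 155 and 143 RPM in B16 KO. Much of this sum was 1 gene, *Mcam*, at 124 and 135 RPM in B16 WT and 109 and 104 RPM in B16 KO. The sum of B16 WT pool 1 also held 67.4 RPM of *Des*, against 4.75 to 7.75 RPM in the other B16 pools. Adipocyte markers summed to 171 and 111 RPM in B16 WT and 38.65 and 87.4 RPM in B16 KO. In LLC the adipocyte sum was 28.75 and 20.75 RPM in WT and 2.95 and 93.6 RPM in KO hosts. Skeletal muscle markers summed to 782 and 4.05 RPM in B16 WT and 3.65 and 4.2 RPM in B16 KO. B16 WT pool 1, which held them, was the higher WT pool for *Col18a1*, *Col15a1*, *Col4a1* and *Col4a2*. It was the lower WT pool for *Col6a1*, *Col6a3* and *Col8a1*. No gene of these lists was called in B16. Their part in the result was not tested.

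The fibrillar chains of B16 showed the same order of pools in most genes. *Col3a1* stood at 821 and 1100.2 RPM in WT hosts and 586 and 669 RPM in KO hosts. *Col1a1* stood at 341 and 415 RPM in WT hosts and 263 and 252 RPM in KO hosts. *Col1a2* stood at 439 and 510.2 RPM in WT hosts and 334 and 346 RPM in KO hosts. These leading chains of skin and wound fibers were lower in both KO pools. *Col5a2* stood at 73.75 and 95.5 RPM in WT hosts and 50.1 and 60.45 RPM in KO hosts. *Col5a3* stood at 91.35 and 101.5 RPM in WT hosts and 89.25 and 79.6 RPM in KO hosts. *Col5a1* stood at 99.5 and 112 RPM in WT hosts and 90.5 and 100.2 RPM in KO hosts. Of the type V chains *Col5a1* alone overlapped between the hosts. *Col11a2* stood at 1.65 and 2.1 RPM in WT hosts and 1.05 and 0.95 RPM in KO hosts, with the KO pools lower. *Col27a1* stood at 2.65 and 2.15 RPM in WT hosts and 2.2 and 1.6 RPM in KO hosts. *Col24a1* stood at 0.65 and 1.05 RPM in WT hosts and 0.95 and 1.05 RPM in KO hosts. *Col2a1* stood at 0.65 and 1 RPM in WT hosts and 0.6 and 0.85 RPM in KO hosts. The last 3, all low, overlapped. Fibroblast markers summed to 959 and 1074 RPM in B16 WT and 669.8 and 878 RPM in B16 KO (11 of 12 tested, none called, *Tcf21* at 0 in all libraries). In LLC they summed to 3238 and 5369.7 RPM in WT and 3871 and 3916 RPM in KO hosts, with 5 of 11 lower, *Postn*, *Thy1*, *Mfap5*, *Fbln1* and *Fap*, and none called higher. Of all genes 23.1% were called lower and 15.1% higher in LLC. The markers did not move together. *Dcn* stood at 850.4 and 1287 RPM in LLC WT and 1663 and 1634 RPM in LLC KO (0.66 ± 0.24, adjusted p = 0.0605). *Dpt* stood at 415 and 723 RPM in LLC WT and 1002 and 964 RPM in LLC KO (0.84 ± 0.30, adjusted p = 0.0609). Both KO pools lay above the WT pools for these 2 genes. For the difference between tumors 2 markers, *Dcn* and *Dpt*, were called higher and 3 lower, against 8.15% and 7.05% of all genes. Their part in the result was not tested.

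Other B16 collagens separated the hosts in some cases only. *Col16a1* stood at 146 and 146 RPM in WT hosts and 153 and 150.4 RPM in KO hosts. *Col14a1* stood at 36.5 and 30.9 RPM in WT hosts and 18.85 and 27.05 RPM in KO hosts. *Col12a1* stood at 10.1 and 11.05 RPM in WT hosts and 7.15 and 12.75 RPM in KO hosts. *Col16a1* was the gene after types III and I in the order of RPM per kb (28 ± 0.0611 in B16 WT, close to *Col4a1* with 24.9 ± 3.99) and, like *Col4a5*, lay above both WT pools in both KO pools. *Col7a1* stood at 3.15 and 3.55 RPM in WT hosts and 2.95 and 3.4 RPM in KO hosts. *Col20a1* stood at 3.05 and 4.9 RPM in WT hosts and 3.6 and 2.7 RPM in KO hosts. *Col23a1* stood at 0.8 and 0.55 RPM in WT hosts and 0.55 and 0.35 RPM in KO hosts. In none of these 3 were the hosts separated. *Col9a1* stood at 3.1 and 3.05 RPM in WT hosts and 2.3 and 2.6 RPM in KO hosts. *Col9a2* stood at 1.45 and 1.4 RPM in WT hosts and 1.35 and 1.25 RPM in KO hosts. *Col9a3* stood at 2.6 and 1.9 RPM in WT hosts and 2.2 and 1.65 RPM in KO hosts. The first 2 of these cartilage chains were lower in both KO pools, and *Col9a3* overlapped. *Col13a1* stood at 3.05 and 1.8 RPM in WT hosts and 1 and 1.05 RPM in KO hosts (log2 fold change -0.91 ± 0.30 (SE), adjusted p = 0.45). *Col4a4* stood at 9.9 and 9.6 RPM in WT hosts and 9.4 and 9 RPM in KO hosts. *Col28a1* stood at 1.55 and 0.8 RPM in WT hosts and 0.8 and 0.85 RPM in KO hosts. *Col13a1*, *Col14a1* and *Col4a4* were lower in both KO pools, by margins that were not called, and *Col28a1* overlapped.

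Whether the host effect differed between the tumors was tested as LLC effect minus B16 effect, which called 14 of 33 collagens, 9 higher and 5 lower, against 15.2% of all genes, 8.15% higher and 7.05% lower. Higher differences were found for basement membrane and type VI chains, for which the B16 values were negative: *Col6a1* 1.74 ± 0.24 (SE; adjusted p = 0.00854), *Col6a2* 1.41 ± 0.23, *Col6a5* 1.73 ± 0.27, *Col18a1* 1.27 ± 0.24, *Col4a1* 0.80 ± 0.15 and *Col4a2* 0.77 ± 0.14. *Col4a5* (3.08 ± 0.51, and 2.41 or 3.75 without LLC WT pool 1 or 2), *Col2a1* (1.89 ± 0.37) and *Col8a1* (1.10 ± 0.19) were also higher. In B16 *Col6a5* stood near the floor, at 0.1 to 0.6 RPM, and *Col2a1* was low, at 0.6 to 1 RPM. Lower differences were found for *Col24a1* (-2.80 ± 0.47), *Col12a1* (-1.89 ± 0.32), *Col23a1* (-1.63 ± 0.35), *Col27a1* (-1.50 ± 0.27) and *Col1a1* (-1.16 ± 0.31, adjusted p = 0.0453). Of these *Col23a1* was low in B16, at 0.35 to 0.8 RPM, and reached the filter of 1 RPM in LLC alone. *Col24a1* was low in B16 too, at 0.65 to 1.05 RPM. The difference was not called for *Col1a2* (log2 fold change -1.11 ± 0.34 (SE), adjusted p = 0.0642) or *Col3a1* (log2 fold change 0.36 ± 0.44 (SE), adjusted p = 0.604), so it is not shown that these chains responded differently in the 2 tumors. *Col6a1* was the only collagen called in every alternative. The count of higher calls was 4 without B16 WT pool 1 or 2, 3 without B16 KO pool 1 and 2 without LLC KO pool 1, and the count of lower calls ranged from 0 (without either B16 WT pool) to 11 (without LLC WT pool 1).

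Averaged over both tumors, a contrast that reuses the same 8 libraries, 2 collagens were higher (*Col4a5* 1.81 ± 0.26 and *Col2a1* 0.84 ± 0.18) and 15 lower in KO hosts, against 23.0% of all genes, 8.12% higher and 14.9% lower. The 15 were 6 fibrillar, 2 basement membrane and 7 other genes, led by *Col15a1* (-1.84 ± 0.28), *Col24a1* (-1.23 ± 0.24), *Col1a1* (-1.13 ± 0.16) and *Col23a1* (-1.12 ± 0.18). A call of the average does not mean that the effect was shared. In B16 and LLC the log2 fold changes were 0.17 and -2.63 for *Col24a1*, -0.14 and -2.02 for *Col12a1*, and -1.31 and -0.04 for *Col18a1*. For *Col2a1* they were -0.11 and 1.79. *Col15a1* (-0.92 and -2.76) and *Col1a1* (-0.55 and -1.71) were negative in both tumors. *Col15a1*, *Col1a1*, *Col1a2*, *Col12a1*, *Col23a1*, *Col27a1* and *Col4a5* kept their call in every alternative. The lower count was 9 without B16 WT pool 1, B16 WT pool 2 or B16 KO pool 1 and 8 without B16 KO pool 2, and the higher count was 1 without either B16 WT pool, B16 KO pool 2 or either LLC KO pool.

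Between the tumors, 25 of 33 collagens were higher and 6 lower in LLC, against 77.5% of all genes, 39.9% higher and 37.7% lower. All 10 tested fibrillar genes were higher (median 2.76), as were all 5 tested type VI chains (median 3.32). In 22 collagens all 4 LLC pools lay above all 4 B16 pools and in 4 below, against 32.2% and 30.2% of all genes. *Col18a1* differed most: 826 to 1021 RPM in LLC against 9.35 to 30.05 RPM in B16, a fitted 57.3-fold (log2 fold change 5.84 ± 0.12 (SE), adjusted p = 9.93e-09). *Col6a1* was 35.8-fold, *Col6a2* 30.1-fold, *Col3a1* 19.8-fold, *Col1a1* 13.3-fold and *Col7a1* 13.2-fold higher in LLC. Fibroblast markers were also higher in LLC, 3238 to 5370 RPM against 670 to 1074 RPM, and their part in the result was not tested.

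Fewer collagens were lower in LLC. *Col9a1* was read in all 4 B16 pools (3.1 and 3.05 RPM in WT, 2.3 and 2.6 RPM in KO) and in no LLC pool, so it was at least 16.2-fold higher in B16, taking 3 reads in the shallowest LLC library as the floor. *Col9a2* stood at 1.25 to 1.45 RPM in B16 and at 0 to 0.15 RPM in LLC. *Col4a4*, 9 to 9.9 RPM in B16, stood at 2 to 4.75 RPM in LLC (log2 fold change -1.63 ± 0.22 (SE), adjusted p = 0.000206). *Col20a1* (-1.24) and *Col13a1* (-1.09) were lower as well. *Col4a5* was called lower on average (-0.71, adjusted p = 0.035), but LLC KO pools lay above and LLC WT pools below the B16 pools, and the call was lost without any single B16 pool or LLC KO pool 2 (adjusted p = 0.0813 to 0.107). *Col15a1* and *Col9a3* were not called, *Col15a1* with -0.40 to 0.88 and *Col9a3* with -0.68 to 0.09 as the 95% interval of the log2 difference. The direction of *Col15a1* turned without LLC KO pool 2 (-0.09), and it was called higher without LLC KO pool 1 (0.57, adjusted p = 0.0167).

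The 11 collagens that did not enter the test stayed at or under 1.05 RPM in every library. They were *Col11a1*, *Col4a3*, *Col4a6*, *Col6a4*, *Col8a2*, *Col10a1*, *Col17a1*, *Col19a1*, *Col22a1*, *Col25a1* and *Col26a1*. *Col10a1*, of hypertrophic cartilage, stood at 0.55 to 0.9 RPM in B16 and 0 to 0.1 RPM in LLC. *Col11a1*, of type XI, stood at 0.9 and 0.8 RPM in LLC WT and 0 and 0.4 RPM in LLC KO.

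The machinery around collagen moved in both directions in LLC tumors of KO hosts, read against the 15.1% higher and 23.1% lower of all genes. Of 16 tested genes for hydroxylation, glycosylation and folding 4 were higher and 2 lower. The lysyl hydroxylase *Plod2* (log2 fold change 1.23 ± 0.08, adjusted p = 0.000238), the prolyl hydroxylase *P4ha1* (1.17 ± 0.08, adjusted p = 0.000251) and *Plod1* (1.02 ± 0.11, adjusted p = 0.00118) rose, and the prolyl 3-hydroxylase *P3h1* fell (-0.90 ± 0.12, adjusted p = 0.00209). Of 12 genes for secretion, propeptide removal and assembly 7 were lower and 0 higher. The lowest adjusted p-values were those of the fibril-binding proteoglycan biglycan, *Bgn* (-2.41 ± 0.11, adjusted p = 6.16e-05), the export receptor *Mia3* (-0.34 ± 0.07, adjusted p = 0.00848), the propeptide protease *Adamts2* (-1.51 ± 0.30, adjusted p = 0.00857) and the collagen-binding *Sparc* (-0.97 ± 0.21, adjusted p = 0.0116). Of 6 cross-linking genes 4 lysyl oxidases were lower and 1 higher. *Loxl3* (-0.71 ± 0.07, adjusted p = 0.000786), *Loxl2* (-1.41 ± 0.25, adjusted p = 0.00519), *Loxl1* (-1.42 ± 0.25, adjusted p = 0.00526) and *Lox* (-1.37 ± 0.27, adjusted p = 0.00757) fell. The gene that rose was *Loxl4* (0.87 ± 0.26, adjusted p = 0.0328), named after its value was seen.

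Of 9 tested collagen receptors and uptake genes 4 were higher and 2 lower in LLC KO. The collagen receptor kinase *Ddr1* (0.96 ± 0.07, adjusted p = 0.000266), *Itga10* (1.38 ± 0.23, adjusted p = 0.00455) and *Itgb1* (0.41 ± 0.09, adjusted p = 0.0114) rose and *Itga1* (-0.81 ± 0.15, adjusted p = 0.00604) fell. Of 14 tested partners of type IV collagen in basement membranes 3 were higher and 4 lower. The linker proteins *Nid2* (-1.38 ± 0.19, adjusted p = 0.00251) and *Nid1* (0.86 ± 0.23, adjusted p = 0.0243) went opposite ways, and the laminin chain *Lama4* fell (-1.23 ± 0.25, adjusted p = 0.00874). In B16 none of the 57 tested genes of these 5 lists was called.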

How the data were processed

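RNA of pooled tumors (3 per pool, 2 pools per group) was extracted with TRIzol, and TruSeq libraries, not stated to be strand-specific, were read as 100 base pairs of ends. Per the submitters' processing notes and methods, reads were trimmed with Trimmomatic, aligned with STAR to mouse genome GRCm38.p4 (mm10) and counted with HTSeq; versions are not given in the sources used here. The deposited values are such counts, scaled by the authors to 20 M (20 times 1000000) per library and rounded, and were treated as a normalized score, not as raw counts, so no count model was run. They were divided by 20 (RPM). As rounding hides single reads, depth was estimated from the steps between low values, and reads cannot be recovered exactly. Scaling to a fixed total means that a few abundant genes can shift all others.

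The members and gene lists were chosen with earlier results of these data known. Collagens, marker lists and 5 lists of genes acting on collagen were tested in a limma fit (limma 3.58.1, R 4.3.3) of log2(RPM + 0.5) over the 4 groups, with a variance trend, for genes that reached 1 RPM in 2 or more of 8 libraries. All 5 contrasts were adjusted by Benjamini-Hochberg over 14706 genes. Fold changes are on the log2(RPM + 0.5) scale and understate the change of low genes. Every tested collagen called in some contrast or averaging 50 RPM in a group was named, the others were added after their values were seen, and up to 4 genes per list were named by the smallest adjusted p; 1 gene that this rule takes is not reported here. The fit was tested on simulated data. Lengths and coding bases came from GENCODE M21, with the transcript of the longest coding sequence, and promoters from RefSeq (GRCm38.p6). Tables were made with Python 3.11.15, pandas 2.3.3, numpy 2.4.6 and matplotlib 3.10.9. Alternatives were pseudocounts of 0.05 and 2 RPM, a filter of 5 RPM or none, TMM and median of ratios scaling, robust moderation, no variance trend, a replicate block, each tumor alone, and leaving out each library in turn.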

Additional observations from a re-analysis of the deposited data

Results flagged for a closer look

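The effect of the host on 14 collagens differed between the 2 tumors in the limma test of LLC effect minus B16 effect (log2 scale, adjusted p under 0.05 over all genes tested). Only *Col6a1* kept this call in every alternative that was run. *Col1a1*, for example, lost it under TMM scaling (limma, adjusted p = 0.0542). A positive value means that KO over WT was higher in LLC than in B16. Among basement membrane genes it was 3.08 for *Col4a5*, 1.27 for *Col18a1*, 0.80 for *Col4a1* and 0.77 for *Col4a2*. *Col4a5* was higher in KO pools of both tumors, whereas *Col4a1* and *Col4a2* were lower in KO pools of B16 and slightly higher in those of LLC. Among type VI genes it was 1.74 for *Col6a1*, 1.41 for *Col6a2* and 1.73 for *Col6a5*, and in all 3 every KO pool was lower than the WT pools in B16 and higher in LLC. For *Col6a5* the B16 part rests on few reads, and the gene entered the test through LLC alone. It stood at 0.4 and 0.6 RPM in B16 WT and 0.2 and 0.1 RPM in B16 KO, where 3 reads equal 0.107 to 0.123 RPM. *Col2a1* had 1.89 and *Col8a1* 1.10. *Col2a1* also needed its LLC pools to enter the test, at 0.65 and 1 RPM in B16 WT and 0.6 and 0.85 RPM in B16 KO. Negative values were found for *Col24a1* (-2.80), *Col12a1* (-1.89), *Col23a1* (-1.63), *Col27a1* (-1.50) and *Col1a1* (-1.16). Like *Col6a5*, *Col23a1* entered the test through LLC alone, at 0.8 and 0.55 RPM in B16 WT and 0.55 and 0.35 RPM in B16 KO. Both LLC KO pools also held reads of Y-linked genes and fewer endothelial marker reads, and their part in these differences was not tested.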

How the results depend on the processing

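With 2 pools per group, 1 pool decides many calls, and differences under about the spread of the WT pools of LLC cannot be resolved. Single collagen results were on the same side of the threshold with the same direction in 1987 of 2194 refits, lost the call in 171, gained it in 24 and changed sign in 12. Of the collagens called in LLC, 11 of 19 kept the call in every alternative, as did 7 of 17 averaged over tumors, 1 of 14 for the difference between tumors and 30 of 31 for LLC against B16. Scaling moved the median of all genes by at most 0.083 (log2).

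Leaving out 1 library gave 4 to 6 higher and 9 to 16 lower collagens in LLC, 0 and 0 to 1 in B16, 1 to 3 and 8 to 18 averaged, 2 to 11 and 0 to 11 for the difference, and 25 to 26 and 5 to 6 for LLC against B16. With each tumor fitted alone 8 collagens were lower in LLC. Without a filter the averaged contrast called 1 higher and 8 lower, the difference called 4 higher and 0 lower, and the median difference of the other class was -0.12. The difference called 3 lower with a pseudocount of 0.05 RPM, and LLC against B16 called 2 lower with a filter of 5 RPM, which tests fewer genes. For the rest the cause was not tested.

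The following log2 fold changes changed sign. In B16 they were *Col12a1* (-0.53 to 0.26 with 1 library left out, positive without B16 KO pool 1) and *Col7a1* (-0.16 to 0.021, positive also at 0.0071 without B16 WT pool 2). In LLC they were *Col18a1* (0.053 with TMM, 0.052 with median of ratios, -0.19 to 0.12 with 1 library left out) and *Col3a1* (-0.77 to 0.28, positive without LLC WT pool 2). Averaged, *Col6a2* was -0.033, -0.053 and -0.014 without B16 KO pool 2, LLC WT pool 1 and LLC KO pool 1, and at most 0.15. The difference of *Col3a1* was -0.17 to 0.88, negative without LLC WT pool 1, and *Col15a1* in LLC against B16 was -0.093 to 0.57, negative without LLC KO pool 2.

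The labels give pools of different groups with the same number nothing in common but that number. Correlations of their deviations were -0.030 to 0.308, the highest being that of B16 KO with LLC WT. With the replicate number as a block, 0 collagens were called in B16, 5 higher and 13 lower in LLC, 2 and 17 averaged, 9 and 6 for the difference, and 25 and 6 for LLC against B16.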
